A study of Mus musculus with 8 samples.

Results

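The 47 genes described here form the glutathione, thioredoxin and NRF2 antioxidant system of the mouse. They were chosen by symbol from a fixed list, and all 47 matched 1 gene each among the 49315 identifiers of the count tables. Whole-esophagus RNA came from 5 libraries of wild-type mice on untreated water and 3 libraries of wild-type mice that drank 0.5% sodium dodecyl sulfate (SDS), an anionic household detergent, for 14 days. The labels give day 14 for both groups. The sources used here give neither strain, age nor sex, and no label ties a library to its own animal. The p-values below therefore reflect library-to-library spread alone, which may be technical. The comparison of SDS with untreated water asks what the detergent does to the esophagus; the question here is how far the genes that handle peroxides and electrophiles changed.

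NRF2, the protein of Nfe2l2, is a transcription factor that its adaptor KEAP1 holds at a low level by marking it for degradation. Oxidants and electrophiles modify cysteines of KEAP1, NRF2 then accumulates, and it binds antioxidant response elements of genes for glutathione synthesis, thioredoxin recycling, detoxifying reductases and NADPH supply. Glutathione peroxidases, peroxiredoxins and catalase remove peroxides, superoxide dismutases make peroxide from superoxide, and glutathione transferases attach glutathione to electrophiles. In squamous epithelium this system is known for protecting the surface from ingested chemicals. Because NRF2 is controlled mostly as a protein, the level of its own transcript is a limited gauge of its activity.

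Counts per library ranged from 22033866 to 29802362, and all 47 members passed the filter on low counts. Both main tissues of the mouse esophagus were present in every library. The 10 markers of resting squamous epithelium summed to 41160 to 135900 CPM (counts scaled to a common library size) in controls and 88890 to 150500 CPM in SDS. Krt4 and Krt13 were the largest of them, with control means of 44490 and 43370 CPM. Krt14 alone passed, upward, at 5030, 4003 and 1093 CPM in SDS libraries 1 to 3 against 325 to 822 CPM in controls. Krt15 measured 754, 611 and 1666 CPM in those libraries against 920 to 1868 CPM in controls. The 12 markers of skeletal muscle summed to 31910 to 43590 CPM in controls. The skeletal muscle sum was lower in every SDS library, at 27310, 22030 and 15200 CPM in SDS libraries 1, 2 and 3. None of the 12 markers passed the test singly, and the ranges of Myh2, Myh4, Mylpf and Actn3 overlapped between the groups. The 8 markers of stressed keratinocytes summed to 14920, 12250 and 233.5 CPM in those libraries against 90.7 to 155 CPM in controls, and 6 of 8 passed upward. The 9 macrophage and dendritic cell markers summed to 482, 893 and 208 CPM against 203 to 329 CPM, with 0 of 9 called. SDS library 3 was thus far closer to the controls than the other SDS libraries in both lists. The 10 adipocyte markers varied mainly among controls, from 241 CPM in control library 3 to 5913 CPM in control library 4, and measured 1793, 230 and 434 CPM in SDS. None of the marker lists named here held a gene at 0 in all libraries. In whole tissue, fewer cells of a type and less RNA per cell cannot be told apart, and the part of these markers in the results was not tested unless a value is given.

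Promoter sequences were searched because NRF2 acts through the antioxidant response element. The list includes known NRF2 targets, so the share below is not independent of the choice of members. The core TGACNNNGC was looked for on both strands in RefSeq windows (GRCm38.p6) that run from 250 bases before to 50 bases after each start. Of the 41 members with a window, 12 held the core (29.3%), against 13.99% of all 27025 genes with a window. The stretches below are those upstream of the start in members whose values are given by library, with the core in capitals:
Prdx1: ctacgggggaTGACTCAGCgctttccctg
Gclm: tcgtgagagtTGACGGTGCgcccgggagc
Nfe2l2: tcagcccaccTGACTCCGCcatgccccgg
Txnrd1: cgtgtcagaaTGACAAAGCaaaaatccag
Sod1: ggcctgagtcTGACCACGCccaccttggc
Each is written 5′ to 3′ on the strand that reads as the core. The Prdx1 stretch is chr4:116685456-116685484 on the minus strand, centred 129 bases before the start. The Gclm stretch is chr3:122245413-122245441 on the minus strand, 130 bases before the start, and the Nfe2l2 stretch is chr2:75704885-75704913 on the minus strand, 236 bases before it. The Txnrd1 stretch is chr10:82859104-82859132 on the minus strand, 88 bases before the start, and the Sod1 stretch is chr16:90220696-90220724 on the minus strand, 52 bases before it. Prdx1 and Me1, the malic enzyme that makes NADPH, carried the same 9 letters:
Me1: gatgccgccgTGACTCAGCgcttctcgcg
The Me1 stretch is chr9:86695902-86695930 on the minus strand and is centred 2 bases before the start. The other members with the core were Ugdh, Srxn1, Mgst1, Gsta3, G6pdx and Pgd. Hmox1, Gclc, Gsr, Prdx6, Sod3 and Gsta4 had no window and were not searched. Sequence outside the windows was not searched for any member. A match describes letters in a window and shows no binding.

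Levels per exon length (TPM, counts per base of exon scaled to 1 common total) covered a wide range in untreated esophagus. Gsta4, a glutathione transferase that conjugates lipid aldehydes such as hydroxynonenal, led with 1881 ± 363 TPM (SD, n = 5), ahead of the omega-class transferase Gsto1 at 784 ± 313 TPM, whose spread was wide. Thioredoxin, Txn1, the small disulfide reductase, followed at 646 ± 37.8 TPM. The copper and zinc superoxide dismutase Sod1 stood at 601 ± 215 TPM, the pi-class transferase Gstp1 at 587 ± 49.8 TPM and the mu-class transferase Gstm1 at 565 ± 27.2 TPM, and these neighbours did not differ beyond their spread. Among peroxidases Gpx2, the epithelial glutathione peroxidase, measured 477 ± 151 TPM and the ubiquitous Gpx1 437 ± 54.7 TPM, again within their spread. The most abundant peroxiredoxin was Prdx5 at 427 ± 15.1 TPM. In the NADPH supply list the pentose phosphate enzyme Taldo1 led at 352 ± 24.5 TPM. Malic enzyme Me1, which itself makes NADPH, measured 301 ± 47.5 TPM. Glutathione synthesis genes lay far lower: Gclm, Gclc, Gss and Gsr had control means of 23.8, 23.3, 20.0 and 17.7 TPM. The lowest control means were those of the mitochondrial thioredoxin reductase Txnrd2, 7.22 ± 2.04 TPM, and of Gsta3, 8.70 ± 8.22 TPM. Gsta3 was lower than Txnrd2 in every control but library 4, where it reached 23.2 TPM.

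**Figure D1:**
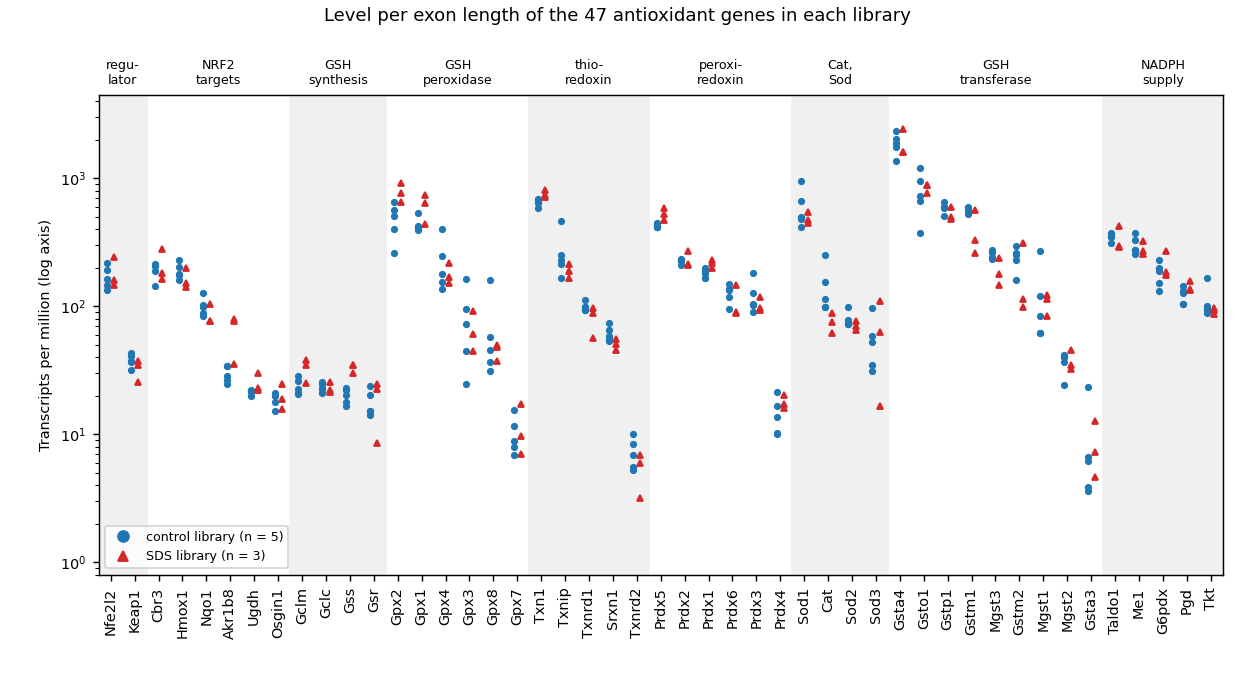
TPM, a level per exon length, on a log axis for each of the 47 members, ordered by control mean within 9 roles; blue circles are the 5 control libraries and red triangles the 3 SDS libraries. Gsta4 was the most abundant member at a control mean of 1881, and the groups overlap for most members.

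The controls differed among themselves in an ordered way. On the CPM scale 18 of 47 members (38.3%) were highest in control library 3 and lowest in control library 4, against 15.9% of all tested genes, and 8 (17.0%) showed the opposite order, against 14.1%. Among the 18 were Nfe2l2, Nqo1, Hmox1, Gclc, Gclm, Gss, Gpx2, Gsta4, Gsto1, Gstm1, Gstm2 and Gstp1. The 8 were the secreted peroxidase Gpx3, the lipid peroxidase Gpx4, Gpx7 and Gpx8 of the endoplasmic reticulum, the mitochondrial Prdx3, Sod1, the extracellular dismutase Sod3 and Gsta3. Markers of resting squamous epithelium were highest in control library 3 (135900 CPM) and lowest in control library 4 (41160 CPM). Adipocyte markers ran the other way (241 and 5913 CPM), and smooth muscle markers were highest in control library 4 (5098 CPM) and lowest in control library 2 (692 CPM). Their part in the order of these genes was not tested. The order was noticed in these data and is a description of 5 libraries.

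**Figure D2:**
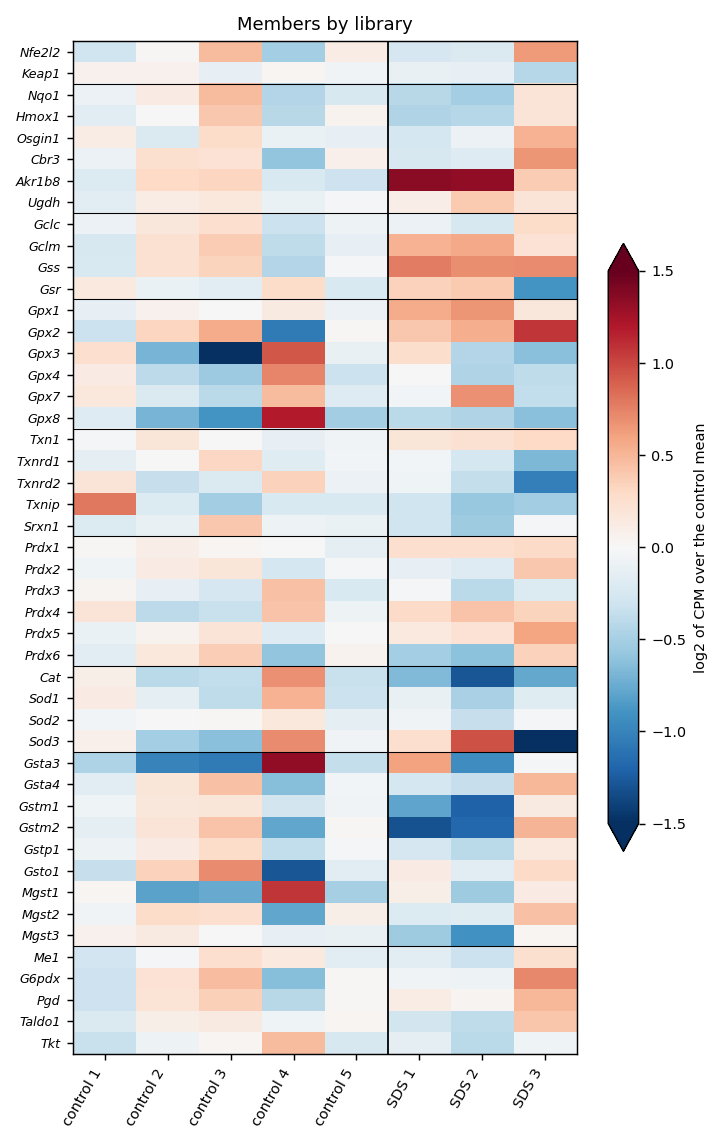
Heat map of the log2 ratio of CPM to the control mean for 47 members (rows, with lines between roles) in 5 control and 3 SDS libraries (columns); red is above and blue below the control mean, and the scale ends at 1.5 either way. Control library 4 runs opposite to control library 3 in many rows, and SDS libraries 1 and 2 differ from SDS library 3.

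In SDS against control, 0 of 47 members passed the threshold of 0.05 on the adjusted p (edgeR quasi-likelihood, Benjamini-Hochberg over 17179 genes). Of all tested genes 180 passed, 1.05%, with 0.623% higher and 0.425% lower in SDS. At an unadjusted p under 0.05 there were 5 members higher and 1 lower in SDS, 6 of 47, while 18.5% of all tested genes lay under that value, 9.98% higher and 8.53% lower. DESeq2 called 5 members, 4 higher and 1 lower, and 9.31% of all genes (4.97% higher, 4.34% lower). Limma-voom called 0 members, and with sample weights 6, 3 in each direction, and 11.3% of all genes (6.58% higher, 4.76% lower). The members' median log2 fold change was 0.0007 and that of all tested genes was -0.0047. Log2 fold changes ran from -0.88 for Cat to 1.09 for Akr1b8, and 24 members were positive and 23 negative. Only 1 member, Akr1b8, exceeded a 2-fold difference (2.13%), compared with 7.42% of all tested genes. The groups' ranges did not overlap for 6 members, with 5 higher in SDS (Akr1b8, Gss, Gpx1, Txn1 and Prdx1; 6.49% of all tested genes) and 1 lower (Cat; 6.9%).

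**Figure D3:**
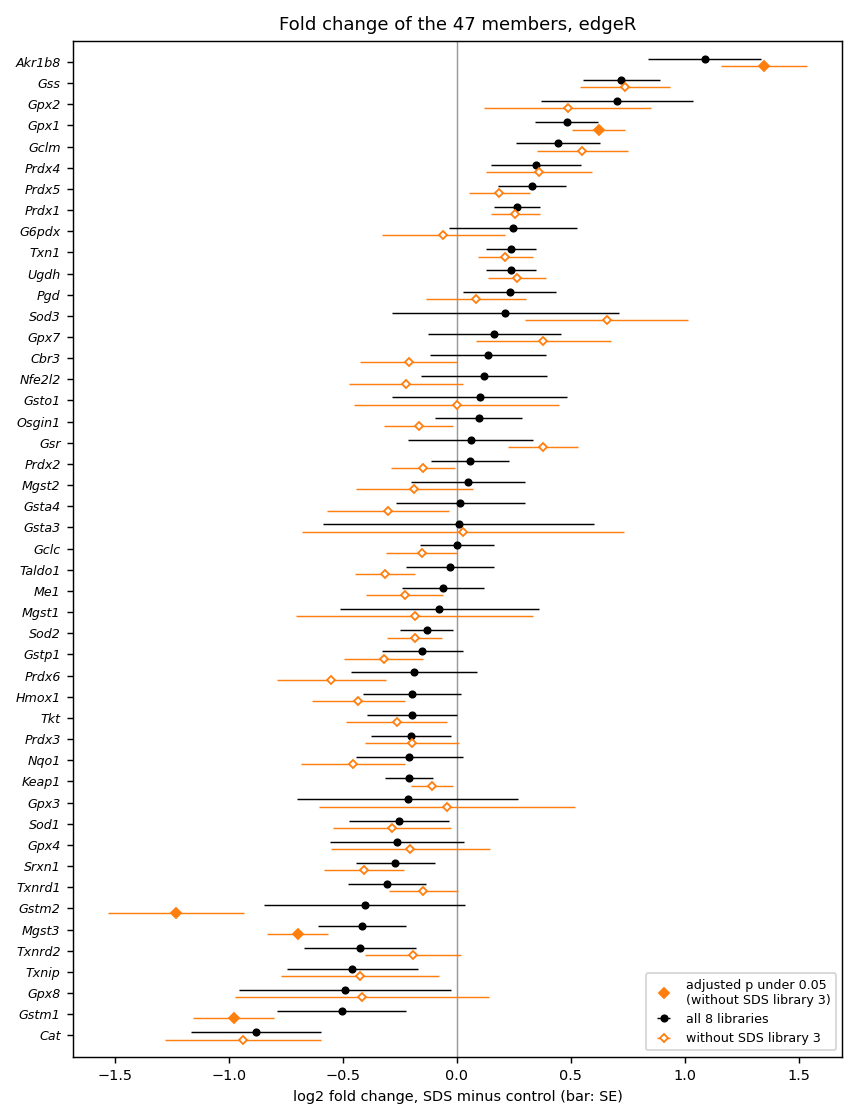
Log2 fold change of SDS over control with its SE for each of the 47 members, sorted; black circles use all 8 libraries and orange diamonds leave out SDS library 3, filled where the adjusted p was under 0.05. With all libraries none passed in the main edgeR fit. Without SDS library 3, singled out after its values were seen, Akr1b8 and Gpx1 passed upward and Gstm1, Gstm2 and Mgst3 downward. Of all genes 1.05% passed with all libraries and 6.92% without that one.

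Neither regulator passed the test. Nfe2l2 (chromosome 2, 75675513 to 75704641, mm10) measured 217, 270, 372, 187 and 288 CPM in control libraries 1 to 5 and 224, 231 and 415 CPM in SDS libraries 1 to 3. SDS library 3 was the highest of all 8, and the other SDS libraries lay inside the control range; the log2 fold change was 0.12 ± 0.28 (SE). Keap1 (chromosome 9, 21229730 to 21239361) measured 75.3, 75.2, 66.2, 73.3 and 69.6 CPM in controls and 66.5, 66.2 and 53.6 CPM in SDS. Only SDS library 3 lay clearly under the controls, and the log2 fold change was -0.21 ± 0.10 (SE; adjusted p = 0.323). The exons of Keap1 share 3280 bases with the opposite-strand gene Gm16754, which had 436 counts in all against 14428.

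The inducible oxidoreductases showed no common direction. Nqo1, the quinone reductase most used as an NRF2 readout, measured 60.4, 69.5, 88.7, 47.2 and 54.4 CPM in controls and 47.8, 45.1 and 73.3 CPM in SDS (log2 -0.21 ± 0.24, SE). Hmox1, the haem oxygenase, measured 121, 135, 180, 102 and 141 CPM in controls and 99.7, 100.8 and 155 CPM in SDS (log2 -0.20 ± 0.22, SE). SDS libraries 1 and 2 lay under every control for Hmox1 and near the lowest control for Nqo1, and SDS library 3 lay within the control range of both. The carbonyl reductase Cbr3, the most abundant of the role at 192 ± 28.4 TPM in controls, measured 86.8, 109, 108, 61.6 and 97.1 CPM in controls and 78.0, 80.9 and 146 CPM in SDS (log2 0.14 ± 0.26). Osgin1, a growth regulator induced by oxidants, stood at 20.6 ± 2.89 CPM (SD, n = 5) in controls and 22.0 ± 6.62 CPM (SD, n = 3) in SDS. Ugdh, which makes glucuronic acid donors, had a log2 fold change of 0.24 ± 0.11 (SE).

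Akr1b8, an aldo-keto reductase that reduces reactive aldehydes, had the smallest p of the members. It measured 15.7, 22.3, 22.7, 15.5 and 14.6 CPM in controls and 46.3, 45.8 and 23.7 CPM in SDS. SDS libraries 1 and 2 lay far above every control, while SDS library 3 lay just above the highest of them. Its log2 fold change of 1.09 ± 0.25 (SE), or 2.13-fold, did not pass (adjusted p = 0.0744). Without SDS library 3, singled out after its values were seen, it was 1.35 ± 0.19 with an adjusted p of 0.00874. The gene then passed, as did 6.92% of all genes. It also passed in DESeq2 (adjusted p = 0.00269) and in limma-voom with sample weights (adjusted p = 0.00554). With the fit without SDS library 3 these were 3 of 19 alternative fits, and the gene passed in no other. The gene lies on chromosome 6 from 34354119 to 34368463 on the plus strand. Its paralogs Akr1b3 and Akr1b10, which could take part of its reads, had log2 fold changes of 0.13 and -0.08.

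None of the 4 genes of glutathione synthesis and recycling passed, and all 4 had a positive log2 fold change. Gclc, the catalytic subunit of the rate-limiting glutamate-cysteine ligase, had the same mean in both groups, 36.0 CPM: 33.8, 40.4, 42.8, 28.8 and 34.0 CPM in controls and 33.8, 30.6 and 43.6 CPM in SDS (log2 0.0007 ± 0.16, SE). Gclm, its modifier subunit, measured 52.0, 71.9, 79.9, 47.5 and 56.7 CPM in controls and 88.1, 91.3 and 71.7 CPM in SDS. SDS libraries 1 and 2 were above all controls and SDS library 3 was within them (log2 0.44 ± 0.18, adjusted p = 0.246). Gss, the synthetase that completes glutathione, measured 41.6, 57.0, 61.4, 35.9 and 47.7 CPM in controls and 82.8, 79.0 and 79.4 CPM in SDS. All 3 SDS libraries lay above all controls and close together, 80.4 ± 2.09 (SD, n = 3) against 48.7 ± 10.5 CPM (SD, n = 5). Its log2 fold change of 0.72 ± 0.17 (SE) did not pass (adjusted p = 0.0788), and it was 0.74 ± 0.20 without SDS library 3 (adjusted p = 0.0667). Gss passed in DESeq2 (adjusted p = 0.00505) and in limma-voom with sample weights (adjusted p = 0.0149). With the adipocyte markers as a covariate it also passed (log2 0.72, adjusted p = 0.0269, 2.4% of all genes called, 1.4% higher and 0.995% lower). These were 3 of 19 alternative fits, and Gss passed in no other. Gss (chromosome 2, 155563181 to 155592810, minus strand) shares 1181 exon bases, 20.0% of its length, with Acss2 on the opposite strand, and no source used here states the strand setting of the counting. Acss2 measured 56.1 to 131 CPM in controls and 91.1, 52.8 and 107 CPM in SDS, with a log2 fold change of 0.11 ± 0.32. Gsr, which reduces oxidised glutathione with NADPH, measured 21.8, 18.3, 17.5, 23.7 and 16.8 CPM in controls and 25.0, 25.7 and 10.5 CPM in SDS. SDS libraries 1 and 2 were the highest and SDS library 3 the lowest of the 8 libraries for Gsr.

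**Figure D4:**
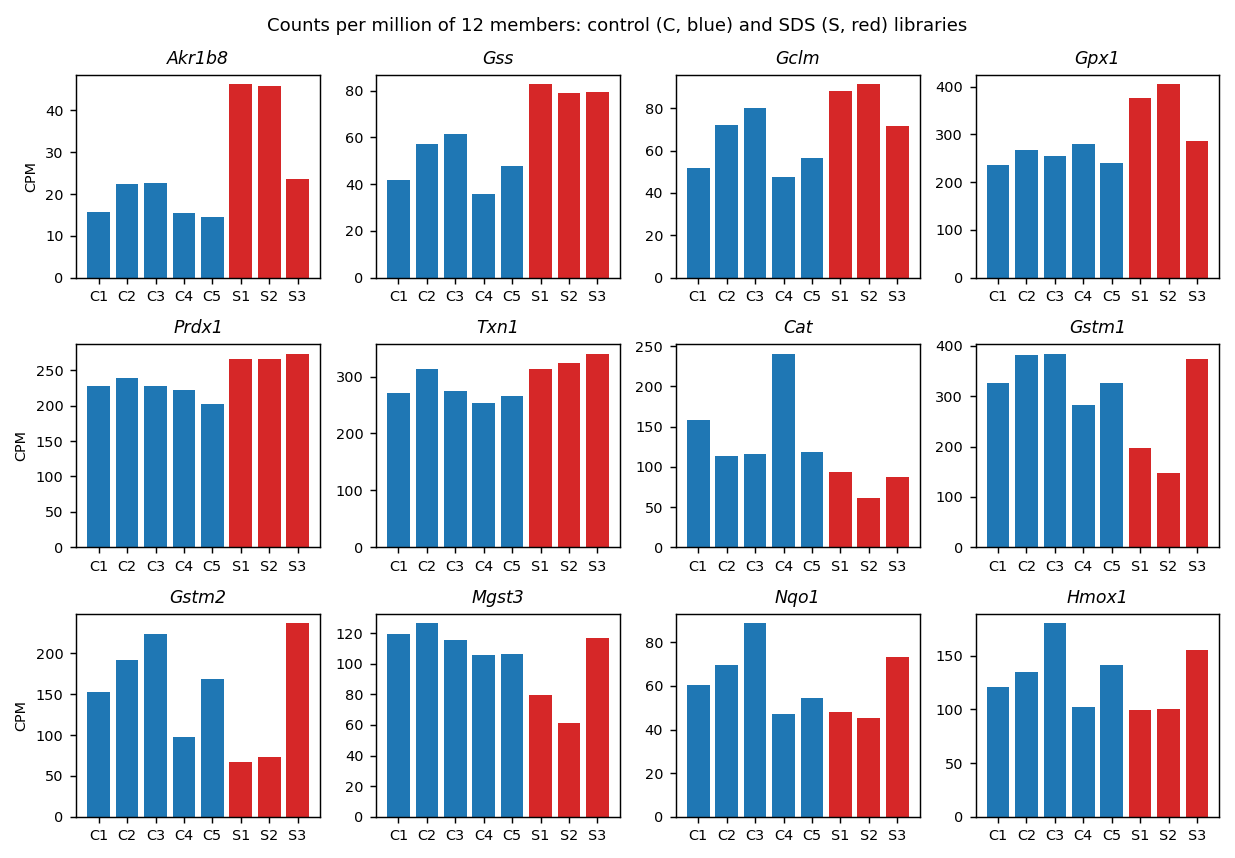
CPM of 12 members in control libraries 1 to 5 (C1 to C5, blue) and SDS libraries 1 to 3 (S1 to S3, red), with each axis starting at 0. Gss was above every control in all 3 SDS libraries, Akr1b8 mainly in SDS libraries 1 and 2, and Gstm1, Gstm2 and Mgst3 were low only in those.

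Among glutathione peroxidases Gpx1, the cytosolic selenoenzyme, measured 235, 267, 254, 280 and 240 CPM in controls and 377, 405 and 287 CPM in SDS. Each SDS library exceeded each control, by a small margin in SDS library 3. The log2 fold change was 0.48 ± 0.14 (SE, adjusted p = 0.119), and 0.62 ± 0.12 without SDS library 3, where Gpx1 passed (adjusted p = 0.0217). It also passed in DESeq2 (adjusted p = 0.00931) and in limma-voom with sample weights (adjusted p = 0.00998). With the fit without SDS library 3 these were 3 of 19 alternative fits, and Gpx1 passed in no other. Gpx2 measured 169, 265, 310, 101.1 and 214 CPM in controls and 280, 310 and 444 CPM in SDS, so that the ranges overlapped at control library 3. Its log2 fold change of 0.70 ± 0.33 did not pass (adjusted p = 0.302). Gpx3, Gpx4, Gpx7 and Gpx8 had log2 fold changes from -0.49 to 0.16, each with an SE of at least 0.29, and control library 4 was the highest control for all of them.

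In the thioredoxin system Txn1 measured 272, 313, 275, 254 and 266 CPM in controls and 314, 323 and 340 CPM in SDS. The ranges just failed to meet, with a log2 fold change of 0.24 ± 0.11 (SE, adjusted p = 0.295). Its cytosolic reductase Txnrd1, a classic NRF2 target, measured 126, 138, 172, 122 and 134 CPM in controls and 134, 115 and 86.8 CPM in SDS (log2 -0.31 ± 0.17). Sulfiredoxin, Srxn1, which repairs overoxidised peroxiredoxins, measured 61.4, 65.3, 93.9, 67.2 and 65.9 CPM in controls and 57.4, 48.9 and 69.8 CPM in SDS (log2 -0.27 ± 0.17). For Srxn1, SDS libraries 1 and 2 were under every control and SDS library 3 was within them. The thioredoxin inhibitor Txnip had a log2 fold change of -0.46 ± 0.29 and Txnrd2 of -0.42 ± 0.25; neither passed. Txnip was -0.16 ± 0.14 without control library 1, its highest at 574 CPM, and 0.37 ± 0.39 with the skeletal muscle markers as a covariate.

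Prdx1, an abundant cytosolic peroxiredoxin, measured 227, 240, 227, 222 and 202 CPM in controls and 266, 265 and 273 CPM in SDS, so that all SDS libraries lay above all controls and SDS library 3 was the highest. The difference was small, a log2 fold change of 0.26 ± 0.10 (SE), 1.20-fold, and did not pass (adjusted p = 0.210). Of 19 alternative fits it passed in 1, DESeq2 (log2 0.27, adjusted p = 0.0126). Prdx5 measured 349, 387, 426, 325 and 375 CPM in controls and 412, 431 and 560 CPM in SDS (log2 0.33 ± 0.15). Control library 3 lay between SDS libraries 1 and 2 for that gene, and Prdx5 shares 1086 exon bases with Trmt112 on the opposite strand, which had fewer counts (5552 against 85498). Prdx2, Prdx3, Prdx4 and Prdx6 had log2 fold changes of 0.06, -0.20, 0.35 and -0.19.

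Catalase, Cat, the peroxisomal enzyme that splits hydrogen peroxide, was the 1 member whose SDS libraries all lay under the controls. It measured 159, 113, 116, 241 and 119 CPM in controls and 94.0, 61.5 and 87.8 CPM in SDS. The log2 fold change was -0.88 ± 0.29 (SE, adjusted p = 0.153), a 1.84-fold lower value. Control library 4, the library richest in adipocyte markers, was the highest for Cat; without it the log2 fold change was -0.63 ± 0.18. With the adipocyte markers as a covariate Cat passed (log2 -0.79 ± 0.16, adjusted p = 0.0480), and it also passed in DESeq2 (adjusted p = 0.0378). These were 2 of 19 alternative fits, and Cat passed in no other. Sod1 measured 169, 139, 119, 223 and 124 CPM in controls and 143, 110 and 136 CPM in SDS, with overlapping ranges (log2 -0.25 ± 0.22). The mitochondrial Sod2 did not pass (log2 -0.13 ± 0.12). Sod3 spread widely in SDS, at 95.9, 157 and 27.8 CPM against 52.1 to 132 CPM in controls; fibroblast markers summed to 2474, 6240 and 998 CPM in the same SDS libraries against 2027 to 2655 CPM in controls, and their part was not tested.

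None of the 9 glutathione transferases passed in the main edgeR fit with all libraries. Gsta4 measured 877, 1115, 1335, 629 and 957 CPM in controls and 817, 771 and 1390 CPM in SDS (log2 0.01 ± 0.28, SE). Gstm1 measured 326, 383, 385, 282 and 327 CPM in controls and 197, 147 and 375 CPM in SDS. Gstm2, its neighbour on chromosome 3, measured 152, 192, 224, 97.2 and 169 CPM in controls and 67.6, 73.6 and 237 CPM in SDS. Mgst3, a microsomal transferase, measured 120, 126, 116, 106 and 107 CPM in controls and 79.6, 61.4 and 117 CPM in SDS. In all 3 genes SDS libraries 1 and 2 lay under every control and SDS library 3 lay among or above the controls. With all libraries the log2 fold changes were -0.51 ± 0.28, -0.41 ± 0.44 and -0.42 ± 0.19. Without SDS library 3 they were -0.98 ± 0.18, -1.23 ± 0.30 and -0.70 ± 0.13 for Gstm1, Gstm2 and Mgst3, with adjusted p of 0.0206, 0.0495 and 0.0240, and all 3 passed. Of all genes 1.94% passed downward in that fit. With all libraries kept, limma-voom with sample weights also called the 3 genes lower, as it did 4.76% of all genes. Their adjusted p there were 0.0170, 0.0208 and 0.0223. For each gene these were 2 of 19 alternative fits, and it passed in no other. Gstm1 and Gstm2 are close paralogs whose reads could be divided in counting, and they are named here after their values were seen. Gstp1 had a log2 fold change of -0.15 ± 0.18 and Gsto1 of 0.10 ± 0.38. Gsta3, Mgst1 and Mgst2 lay between -0.08 and 0.05.

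None of the 5 genes of the NADPH supply list passed. Taldo1 measured 267, 331, 343, 298 and 317 CPM in controls and 258, 240 and 416 CPM in SDS (log2 -0.03 ± 0.19, SE). SDS libraries 1 and 2 were under all controls and SDS library 3 above them all. Of the entry enzymes of the pentose phosphate pathway, G6pdx had a log2 fold change of 0.25 ± 0.28 and Pgd of 0.23 ± 0.21, and the malic enzyme Me1 of -0.06 ± 0.18. Transketolase, Tkt, measured -0.20 ± 0.20.

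SDS library 3 set many of these values. It was the highest SDS library for 27 members (57.4%), against 39.1% of all tested genes, and the lowest for 11 (23.4%), against 43.6%. The library was singled out after its values were seen, and leaving out any 1 other library left 0 members called. Without SDS library 3 there were 5 of 47 members that passed (6.92% of all genes), 2 upward (4.98% of all genes) and 3 downward (1.94%). The ranges then did not overlap for 7 members higher (14.8% of all genes) and 7 lower (13.0%). The 7 lower ones were Hmox1, Srxn1, Cat, Gstm1, Gstm2, Mgst3 and Taldo1, and the median of the 47 was -0.19 against -0.02 for all genes. SDS libraries 1 and 2 were also the ones with high sums of stressed keratinocyte and macrophage markers given above. SDS library 3 was the highest of the 3 for resting squamous epithelium, at 150500 CPM against 88890 and 92390 CPM. It was the lowest for skeletal muscle (15200 CPM) and fibroblasts (998 CPM). The part of these markers in the members' values was not tested.

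Around the members, 105 of 109 other genes of the pathway were tested, and 2 passed upward and 1 downward, against 0.623% and 0.425% of all tested genes. Both that rose were the chains of the cystine importer that supplies the cysteine of glutathione. Slc7a11 rose 5.28-fold, to 159, 154 and 140 CPM in SDS libraries 1 to 3 from 23.9 to 32.2 CPM in controls, and Slc3a2 rose 1.85-fold, to 114, 113 and 85.9 CPM from 52.5 to 61.8 CPM (adjusted p = 0.00021 and 0.0240). SDS library 3 was thus far above the controls for Slc7a11, like the others. With the skeletal muscle markers as a covariate the log2 fold change of Slc7a11 was 2.20 ± 0.18 (adjusted p = 0.0573), and none of the pathway genes passed. Leaving out any 1 library other than control library 4 or SDS library 3 took the call from Slc3a2. Tigar, a phosphatase that diverts glucose to the pentose phosphate pathway, fell by 0.55 on the log2 scale, to 20.8, 17.7 and 19.7 CPM from 26.1 to 30.6 CPM (adjusted p = 0.0462), a call that leaving out any 1 library other than SDS library 3 removed.

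The pathway genes next in order did not pass in the main edgeR fit. Of the genes named in this paragraph, DESeq2 called all but Sqstm1 and Mafk (9.31% of all genes called). Limma-voom with sample weights called Idh1, Hpgds, Nqo2, Gstp2 and Cul3 (11.3%). Without SDS library 3, Idh1, Hpgds and Gstp2 passed (6.92%). Idh1 also passed with upper quartile scaling (1.02%) and the adipocyte covariate (2.4%), and Hpgds with no filter (0.845%). Cytosolic isocitrate dehydrogenase Idh1, another NADPH source, had a log2 fold change of 0.62 ± 0.12 (SE, adjusted p = 0.0549), with 231, 210 and 218 CPM in SDS against 127 to 170 CPM in controls. The prostaglandin D synthase Hpgds measured 10.8, 14.3 and 3.88 CPM against 2.17 to 3.58 CPM (log2 1.78 ± 0.38). The quinone reductase Nqo2 (log2 -0.48 ± 0.11) and the pi-class transferase Gstp2 (-0.51 ± 0.12) were lower in every SDS library than in any control, as was Chac1, which degrades glutathione (-0.96 ± 0.27). In the list of partners and competitors of NRF2, 0 of 13 passed in the main edgeR fit. Of its genes 11 of 13 were negative, against 8709 of 17179 tested genes. Its median was -0.30, against a median of -0.0047 for all genes. The other pathway lists had medians from -0.18 to 0.11, so this list had the most extreme median. Its members Trim16 (-0.74), Nfe2l1 (-0.47), Sqstm1 (-0.40), Mafk (-0.30) and Cul3 (-0.29) had ranges below those of the controls; 6.9% of all tested genes had such ranges. Apart from Trim16, these 5 were named after their values were seen.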

How the data were processed

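Per the labels' protocols, libraries were prepared from poly(A) RNA with an NEBNext Ultra II kit; that text names cell pellets, while the treatment text names whole esophagus. The authors deposited raw counts per gene, 1 table per library, on mm10. STAR 2.6.1c, Subread, FastQC and bcl2fastq are named per the submitters' processing notes. No source used here gives the annotation release, strand setting or treatment of multi-mapping reads, so paralogs and antisense neighbours are uncertain. The deposited tables' other column used is exon length. Symbols matched 48970 of 49315 identifiers, and GENCODE M21 gave 44858 an identical start and end.

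Counts were filtered with filterByExpr (minimum count 10, minimum total 15), scaled by TMM and fitted with the edgeR 4.0.16 quasi-likelihood test in R 4.3.3 (group only, robust, two-sided, Benjamini-Hochberg, threshold 0.05). SE is the log2 fold change over the square root of F. CPM use TMM-scaled sizes; TPM were computed from counts and exon lengths. Alternatives used DESeq2 1.42.0 and limma 3.58.1. The procedure was tested on simulated data. Between libraries of a group, chi-square per degree of freedom was at least 24.1, so no library was a copy. Members, lists and tests were chosen with earlier results of these data known. Values by library are given for the 8 members with the smallest p, for Nfe2l2, Keap1, Nqo1, Hmox1, Gclc, Gclm, Gsr, Txnrd1 and Srxn1, and for the most abundant member of each role; of the other pathway genes, called ones and the 6 with the smallest p are named. No member had an adjusted p past the threshold in the main edgeR fit. Members named beyond this are given for completeness or for SDS library 3. Protein sequences were not used here.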

Additional observations from a re-analysis of the deposited data

Results flagged for a closer look

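In 4 of 47 members a control library lay far from the other controls, by a rule with a nominal rate of about 1 in 20. The share of all tested genes was not counted, so the 4 cannot be called an excess. Control library 4 was the highest or lowest control for 62.0% of all tested genes. Gpx8, a peroxidase of the endoplasmic reticulum, measured 59.9 CPM in control library 4 and at most 23.0 CPM in another control. Gsta3, an alpha-class transferase, measured 36.7 CPM in control library 4 and at most 11.4 CPM in another control. Txnip, the thioredoxin inhibitor that follows glucose supply, measured 574 CPM in control library 1 and at most 290 CPM in another control. Srxn1 measured 93.9 CPM in control library 3 and at most 67.2 CPM in another control.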

How the results depend on the processing

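Depth was not varied. Of 19 alternatives, the 3 other scalings, both other filters and limma-voom left 0 members called and 122 to 265 genes in all. DESeq2 called 1599 genes, 5 members and 17 other pathway genes; limma-voom with sample weights 1948, 6 and 22 (member median -0.082); the adipocyte covariate 412 genes and 2 members (median 0.043). The skeletal muscle covariate, which differs between the groups, called 0 genes and 0 pathway genes (median -0.11; Slc7a11 2.20, adjusted p = 0.0573). No label pairs the libraries by number. Same-numbered deviations correlated at 0.311, -0.006 and 0.307, and those of control library 4 and SDS library 1 at 0.509. These correlations cannot settle whether the libraries were paired. With the replicate block 0 genes and 0 pathway genes were called (median -0.0495; Slc7a11 2.51, adjusted p = 0.0615). Leaving out 1 library gave 4 to 1222 genes, 0 to 5 members, 1 to 12 other pathway genes and member medians from -0.19 to 0.055. The ranges then lay higher in SDS for 5 to 7 members, against 6.94% to 14.8% of all genes. They lay lower for 1 to 7 members, against 7.25% to 13.0% of all genes. Without mitochondrial genes in the total, Txn1 stood at 688.8 TPM and Prdx5 at 454.6 TPM in controls.

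Members that did not pass changed sign under some settings, and the cause was not tested; all but Gpx8 (-0.49) and Txnip (-0.46) had log2 fold changes within 0.27 of 0 with all libraries. Log2 fold changes were -0.0009 for Gclc with a filter of 1 CPM; -0.001 for Gclc, -0.025 for Gsr, -0.034 for Sod3 and 0.10 for Mgst1 with limma-voom; and -0.0057 for Gclc, 0.10 for Gpx3 and 0.16 for Mgst1 with the adipocyte covariate. With sample weights they were -0.19 (Nfe2l2), -0.14 (Osgin1), -0.23 (Cbr3), -0.11 (Gclc), 0.31 (Gpx3), 0.061 (Gpx4), -0.12 (Prdx2), -0.25 (Gsta4), 0.32 (Mgst1), -0.22 (Mgst2) and -0.025 (G6pdx). With the muscle covariate they were -0.46 (Nfe2l2), -0.25 (Osgin1), -0.14 (Cbr3), -0.071 (Gclc), 0.11 (Gpx3), 0.37 (Txnip), -0.10 (Prdx2), -0.11 (Gsta3), -0.28 (Gsta4), -0.077 (Mgst2) and -0.14 (G6pdx). With the replicate block they were -0.008 (Nfe2l2), -0.048 (Cbr3), -0.13 (Gclc), -0.0017 (Gsr), 0.38 (Gpx3), 0.10 (Gpx8), -0.0495 (Prdx2), -0.19 (Gsta4), -0.15 (Gsto1), 0.40 (Mgst1) and -0.13 (Mgst2).

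Leaving out 1 library gave ranges of -0.16 to 0.11 for Gclc, -0.42 to 0.70 for Gsta3, -0.30 to 0.17 for Gsta4, -0.23 to 0.055 for Me1, -0.32 to 0.12 for Taldo1, -0.53 to 0.16 for Gpx3, -0.41 to 0.0066 for Gpx4, -0.65 to 0.076 for Gpx8, -0.086 to 0.35 for Gsto1, -0.22 to 0.40 for Mgst1, -0.19 to 0.16 for Mgst2, -0.14 to 0.38 for Gsr, -0.20 to 0.38 for Gpx7, -0.38 to 0.66 for Sod3, -0.22 to 0.28 for Nfe2l2, -0.17 to 0.25 for Osgin1, -0.21 to 0.30 for Cbr3, -0.15 to 0.17 for Prdx2 and -0.0595 to 0.39 for G6pdx.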
